A study of Glycine max with 30 samples.

Results

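The genes described here are 401 of the 55589 gene identifiers counted in soybean (Glycine max) leaves, 0.721% of all, that had a higher mean in GmNRP(D/E)2-RNAi plants while their mean in GmNRPE1-RNAi plants stayed near that of its controls. Levels are in CPM, the count of a gene scaled to a fixed total count per library. A ratio is the mean CPM of the transgenic plants plus 0.5, divided by the mean CPM of the non-transgenic plants plus 0.5. A gene was taken when its ratio in GmNRP(D/E)2-RNAi was at least 3 with a transgenic mean of at least 2 CPM, and its ratio in GmNRPE1-RNAi lay between 0.67 and 1.5. Those requirements were met by 403 genes, and 2 of them were left out because they lie in a pair of stretches of chromosome 16 that the rule excludes. The NRP(D/E)2 requirement alone was met by 1038 genes, of which 587 lay above the NRPE1 band and 48 below it. Measured values from both lines therefore chose the genes, and the values of those lines are given as a description with no test.

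The series holds 30 libraries of polyadenylated RNA from mature leaves, 1 per plant group and replicate number, with transgenic (T) and non-transgenic (NT) plants of 3 RNAi lines. The groups were 6 T and 6 NT libraries of GmNRP(D/E)2-RNAi in cultivar Mustang, 6 T and 6 NT libraries of GmNRPE1-RNAi in Mustang, and 3 T and 3 NT libraries of GmNRPD1-RNAi in cultivar Jack. The NT plants descend from the same line as the T plants but do not carry the transgene, so each line has its own controls. The promoter of the transgene, and how many transformation events each line stands for, are not given in the sources used here.

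RNA polymerases IV and V are plant relatives of RNA polymerase II that act in RNA-directed DNA methylation. Pol IV, whose largest subunit is NRPD1, makes the precursors of small interfering RNAs. Pol V, whose largest subunit is NRPE1, makes scaffold transcripts to which those small RNAs, bound to Argonaute proteins, are guided, and DNA methylation is laid down at the matching loci. NRP(D/E)2 is the second largest subunit of both enzymes, so RNAi against it is aimed at Pol IV and Pol V together. In plants this pathway is known for keeping transposons and nearby genes silent.

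The count tables give gene identifiers without names, and 0 of the 55589 identifiers matched the table of 59048 named genes from RefSeq. Genes are therefore given by identifier, with no protein or function, and no sequence could be read for them. The RNAi targets and leaf markers could not be looked up by name for the same reason. Places on a chromosome are the order of the identifiers, since the genome build is not given in the sources used here. Leaf RNA is a bulk measure, in which more cells of a type and more RNA per cell cannot be told apart.

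Library totals were between 10049997 and 21763621 counts. No pair of libraries within a group agreed within sampling noise: the lowest chi-square per degree of freedom over 66 pairs was 6.57. When all libraries were brought to 10049997 counts, 40002 genes were detected in NRP(D/E)2 T replicate 3 and 38415 in NRPE1 NT replicate 4, each the highest of its group. Those 2 libraries set much of what follows, and the values are given with and without them.

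The 401 genes had a median T mean of 12.4 CPM in NRP(D/E)2-RNAi, between 2.05 and 573 CPM, against a median NT mean of 2.57 CPM, between 0 and 130 CPM. Their ratios were between 3.00 and 23.3 with a median of 3.83. Most were genes of low to middle level. The T mean was under 5 CPM for 79 genes, from 5 to 10 CPM for 87, from 10 to 50 CPM for 179, from 50 to 100 CPM for 32 and at or above 100 CPM for 24. In the NT libraries 98 genes averaged under 1 CPM, 44 of these under 0.5 CPM and 3 under 0.1 CPM. Just inside the threshold stood Glyma.08G212600 and Glyma.20G033900, with ratios of 3.00 and 3.01, and just outside it Glyma.20G062000 and Glyma.14G205200, both at 3.00 when rounded.

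In 131 of the 401 genes every NRP(D/E)2 T library lay above every NT library. Over all 55589 genes without a filter 3.65% did so, and over the 31773 genes that passed the filter on low counts 5.43% did so, while 2.32% had all T libraries below all NT libraries. The edgeR quasi-likelihood test put 286 of the 386 genes that passed the filter at an adjusted p under 0.05, all higher in T, against 8.6% of genes called higher and 7.25% called lower overall. It called 182 of 387 without T replicate 3, where 1647 of all 31992 tested genes were called higher. Without NT replicate 4 it called 189 of 394, where 1838 of all 32167 tested genes were called higher. The rule used this contrast, so nothing is read from those counts.

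Glyma.13G317600 had the largest ratio of the genes whose groups did not overlap. It had a lowest, median and highest value of 16.4, 30.5 and 58.7 CPM in NRP(D/E)2 T leaves, against 0.807, 0.949 and 1.61 CPM in NT leaves, a ratio of 23.3. Glyma.05G017300 followed, with 4.41, 14.7 and 20.4 CPM in T leaves against 0.231, 0.307 and 0.732 CPM in NT leaves, a ratio of 15.1. In both genes the lowest T library was several times the highest NT library, and without T replicate 3 the ratios were 20.6 and 14.8.

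The highest mean levels in NRP(D/E)2 T leaves belonged to Glyma.13G173500 and Glyma.14G078300. Glyma.13G173500 had 207, 429 and 1403 CPM in NRP(D/E)2 T leaves, against 7.75, 94.3 and 183 CPM in NT leaves, given as lowest, median and highest. Glyma.14G078300 had 309, 395 and 459 CPM in T leaves, against 68.5, 128 and 206 CPM in NT leaves. T and NT libraries were separate for both genes, but the T libraries of Glyma.13G173500 spanned a wide range while those of Glyma.14G078300 lay close together. The mean of Glyma.14G078300 was 393 ± 52.1 CPM in T leaves and 130 ± 47.5 CPM in NT leaves (SD, n = 6 each), and its ratio of 3.02 became 2.92 without T replicate 3.

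**Figure D1:**
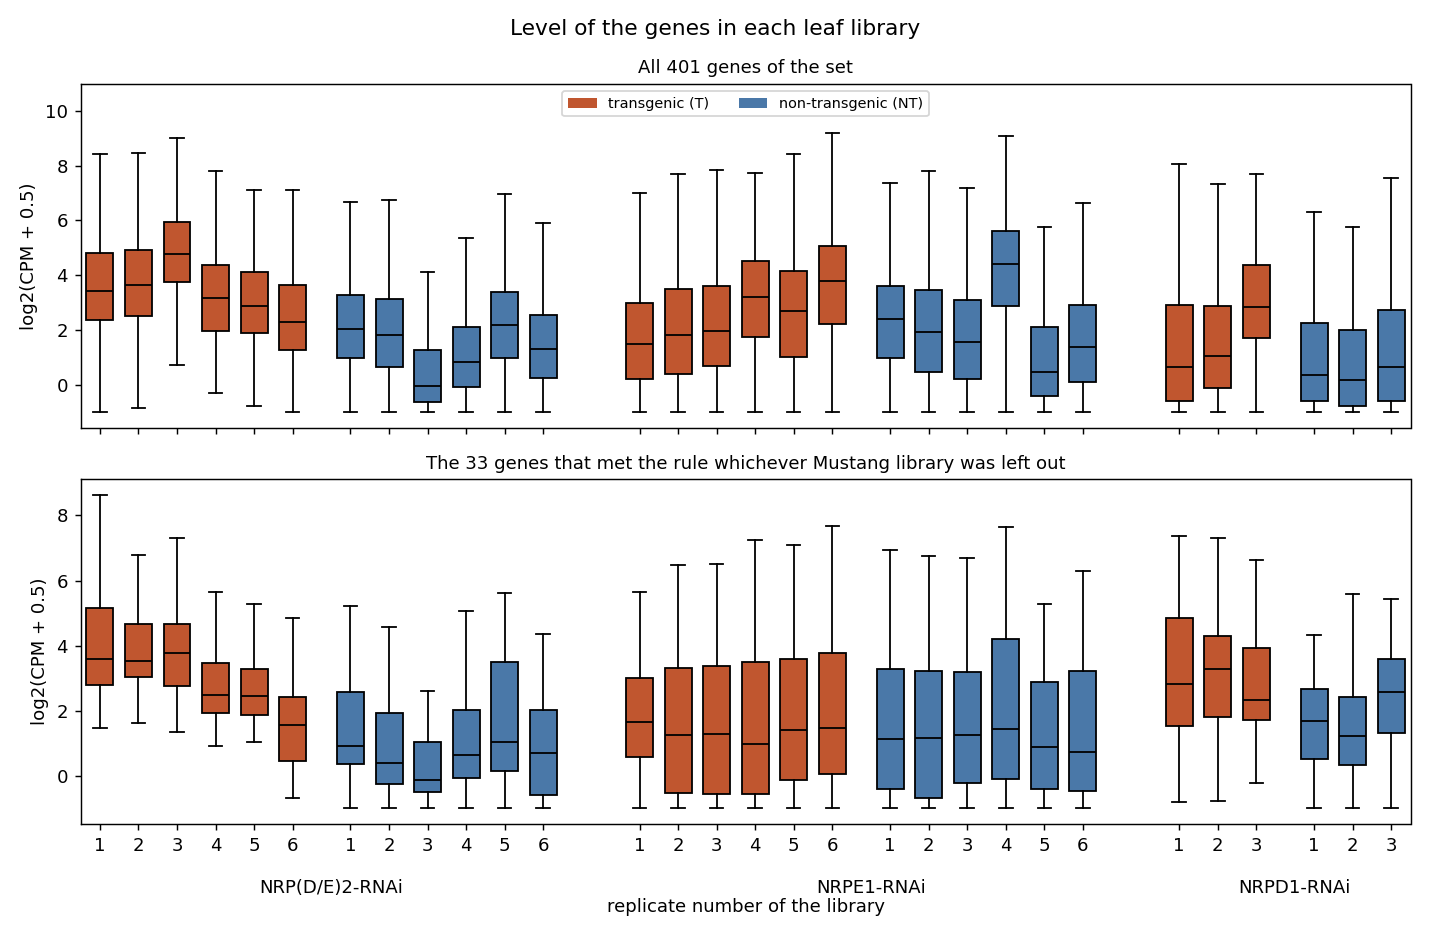
Level of the genes in each of the 30 libraries as log2(CPM + 0.5), with the replicate number on the horizontal axis, T left of NT in each line; the upper panel shows all 401 genes and the lower panel the 33 genes that met the rule whichever Mustang library was left out. Boxes span the quartiles with a line at the median, whiskers reach the farthest gene within 1.5 times the box, and genes beyond them are not drawn. Among all 401 genes NRP(D/E)2 T replicate 3, NRPE1 NT replicate 4 and NRPD1 T replicate 3 stand above the other libraries of their groups, with medians of 26.6, 20.9 and 6.69 CPM.

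The 6 NRP(D/E)2 T libraries did not contribute alike. The median CPM over the 401 genes was 10.3, 11.9, 26.6, 8.44, 6.76 and 4.36 in T replicates 1 to 6, against 3.55, 3.02, 0.476, 1.253, 4.00 and 1.95 in NT replicates 1 to 6. T replicate 3 was thus the highest and NT replicate 3 the lowest of their groups, and T replicate 6 lay close to the upper NT libraries. The 401 genes took between 0.518% and 2.42% of all counts in T libraries, against between 0.106% and 0.423% in NT libraries.

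T replicate 3 held the highest T value for 293 of the 401 genes, or 73.1%. The same library was highest for 52.5% of the 570 genes that passed the NRP(D/E)2 requirement with an NRPE1 ratio above the band, and for 22.6% of all other genes with a mean of at least 2 CPM. It lay above every NT library for 390 of the 401 genes, whereas T replicate 6 did so for 165. In 100 genes a single T library held more than 50% of the summed T level, and in 90 of them that library was T replicate 3. Without T replicate 3 the median ratio was 2.88 instead of 3.83, and 222 of the 401 genes no longer met the NRP(D/E)2 requirement. All 401 ratios stayed above 1 and 397 stayed above 1.5, in libraries that also took part in choosing the genes. The rule favours genes with a high NRP(D/E)2 T mean, so a share above that of other genes follows in part from that choice. Whether a feature of the plant or library of T replicate 3 sets these values was not tested.

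Glyma.06G319700 and Glyma.17G238200 had the largest ratios among the 100 genes carried mainly by 1 library. Glyma.06G319700 had 32.9, 44.8 and 224 CPM in T leaves, against 1.79, 5.59 and 10.4 CPM in NT leaves, as lowest, median and highest. Its T and NT libraries were separate, and without T replicate 3, which held 50.9% of the summed T level, its ratio was 6.97 instead of 11.8. Glyma.17G238200 had 0.249, 2.28 and 18.7 CPM in T leaves, against 0.0672, 0.101 and 0.538 CPM in NT leaves. Its groups overlapped at the lowest T library, and without T replicate 3 its ratio was 4.78 instead of 8.74. Glyma.17G238200 was also among the 33 genes that met the rule whichever Mustang library was left out, with the largest NRP(D/E)2 ratio of them.

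The NRPE1-RNAi line is the one in which the rule required a flat ratio. The median NRPE1 ratio of the 401 genes was 1.11, with 255 genes above 1 and 145 below. No gene had groups that did not overlap, where 1.35% of the 31440 genes tested and 1.09% of all genes had T above NT, and 0.738% of those tested had T below NT. The edgeR test called 0 of the 335 genes that passed the filter at an adjusted p under 0.05, with 2 higher and 2 lower at an unadjusted p under 0.05. DESeq2 also called 0 of them, where it called 934 higher and 681 lower over all 31440 tested genes. Over all tested genes edgeR called 1.19% higher and 0.776% lower. These counts follow from the rule.

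The flat mean in NRPE1-RNAi was not a flat level across plants. The median CPM over the 401 genes was 2.30, 2.99, 3.35, 8.68, 5.95 and 13.2 in NRPE1 T replicates 1 to 6, against 4.79, 3.32, 2.47, 20.9, 0.894 and 2.10 in NT replicates 1 to 6. NT replicate 4 stood above the other NT libraries and also above the T libraries. Among T libraries, replicate 6 was the highest for 260 of the 400 genes with a count in that group, or 65%. It was so for 28.8% of other genes with a mean of at least 2 CPM and for 47.0% of the 570 genes whose NRPE1 ratio lay above the band. The 401 genes took 2.22% of all counts in NT replicate 4, close to the 2.42% in NRP(D/E)2 T replicate 3.

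NT replicate 4 was the highest NRPE1 NT library for 348 genes. It was the highest of all 12 NRPE1 libraries for 253 of the 400 genes with a count there, 63.2%, against 17.8% of other genes with a mean of at least 2 CPM and 5.26% of the 570 genes whose NRPE1 ratio lay above the band. For 268 of the 401 genes NRPE1 NT replicate 4, labelled as non-transgenic, lay above the mean of the NRP(D/E)2 T plants. The targeted gene could not be looked up, so that label could not be checked, and every NRPE1 NT mean and ratio that includes the library takes the label as given. The rule favours genes with a high NRPE1 NT mean, so a share above that of other genes follows in part from the choice of genes. How many other genes lay above the NRP(D/E)2 T mean in NRPE1 NT replicate 4 was not computed.

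Without NT replicate 4 the median NRPE1 ratio of the 401 genes was 1.89 and 277 of them, 69.1%, lay above 1.5. Of all other genes with a mean of at least 2 CPM, 13.2% did so. In 72 of the 401 genes the ratio was then 3 or more, the size the rule asked for in NRP(D/E)2-RNAi. The edgeR test called 22 of 335 tested genes higher without that library, or 6.57%, against 3.69% of all 31753 tested genes. All these libraries took part in choosing the genes, so nothing is read from those shares. The working description of these genes as raised in NRP(D/E)2-RNAi and not in NRPE1-RNAi rests on 1 control library for most of them: 277 of 401 lay inside the NRPE1 band only with NT replicate 4 included. What sets that library apart was not tested. Leaving out NRPE1 T replicate 6 moved the values the other way, and 81 of the 401 genes then lay below the band.

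**Figure D2:**
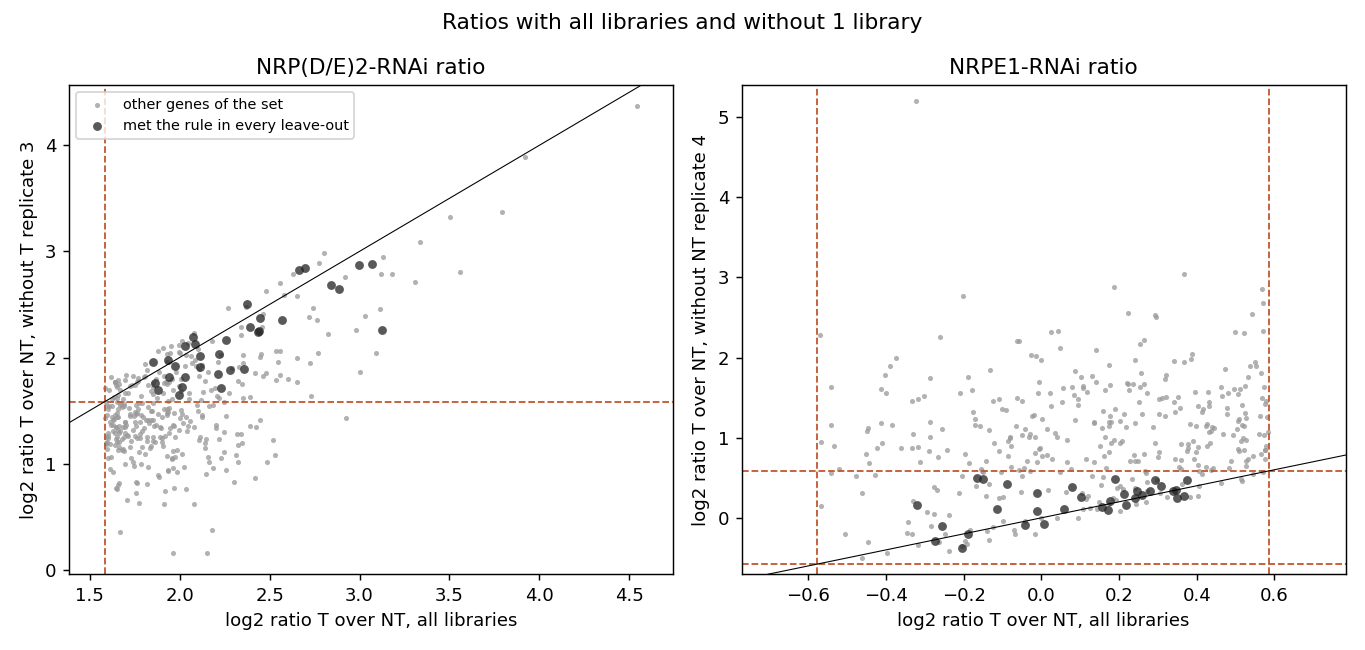
Log2 ratio of group means, T over NT, with all libraries (horizontal) and without 1 library (vertical), for NRP(D/E)2-RNAi without T replicate 3 on the left and NRPE1-RNAi without NT replicate 4 on the right; each point is a gene, dark points are the 33 genes that met the rule in every leave-out, the diagonal marks equal ratios and dashed lines mark the limits of the rule. On the left 220 points lie below the dashed ratio of 3, and on the right 277 of the 401 lie above the band.

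Glyma.13G317600 and Glyma.19G248900 had the largest NRP(D/E)2 ratios among those 277 genes. Glyma.13G317600 had 3.04, 5.95 and 11.5 CPM in NRPE1 T leaves, against 1.47, 2.83 and 11.4 CPM in NT leaves, and its NRPE1 ratio was 1.84 without NT replicate 4 and 1.32 with it. Glyma.19G248900 had 0.131, 1.03 and 4.04 CPM in NRPE1 T leaves, against 0.0726, 0.173 and 4.68 CPM in NT leaves. In both genes the highest T and the highest NT library were close, and for both the highest NT library was replicate 4. The NRPE1 ratio of Glyma.19G248900 was 2.93 without that library and 1.42 with it. In NRP(D/E)2-RNAi that gene had 4.92, 12.1 and 43.7 CPM in T leaves, against 0.272, 0.845 and 1.74 CPM in NT leaves, with no overlap.

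Glyma.13G173500, highest by its NRP(D/E)2 T mean, had 68.1, 206 and 587 CPM in NRPE1 T leaves, against 22.1, 103 and 941 CPM in NT leaves. Its NRPE1 ratio was 3.01 without NT replicate 4 and 1.17 with it. Glyma.14G078300, next by that mean, had 232, 436 and 579 CPM in NRPE1 T leaves, against 276, 405 and 452 CPM in NT leaves, and a ratio of 1.18 without and 1.14 with that library. Its NRPE1 NT mean of 375 ± 77.5 CPM was near its NRP(D/E)2 T mean of 393 ± 52.1 CPM (SD, n = 6 each), so the flat NRPE1 ratio was that of a gene already at the higher level in NRPE1 control plants. Across the 401 genes the NRPE1 NT mean exceeded the NRP(D/E)2 NT mean for 327, and for 214 when NRPE1 NT replicate 4 was left out. The rule favours genes with a low NRP(D/E)2 NT mean and a high NRPE1 NT mean, so these counts follow in part from the choice of genes. Over all 55589 genes the median NT mean was 1.67 CPM in both lines. Both groups are NT plants of cultivar Mustang, and a difference between these control groups was not tested.

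**Figure D3:**
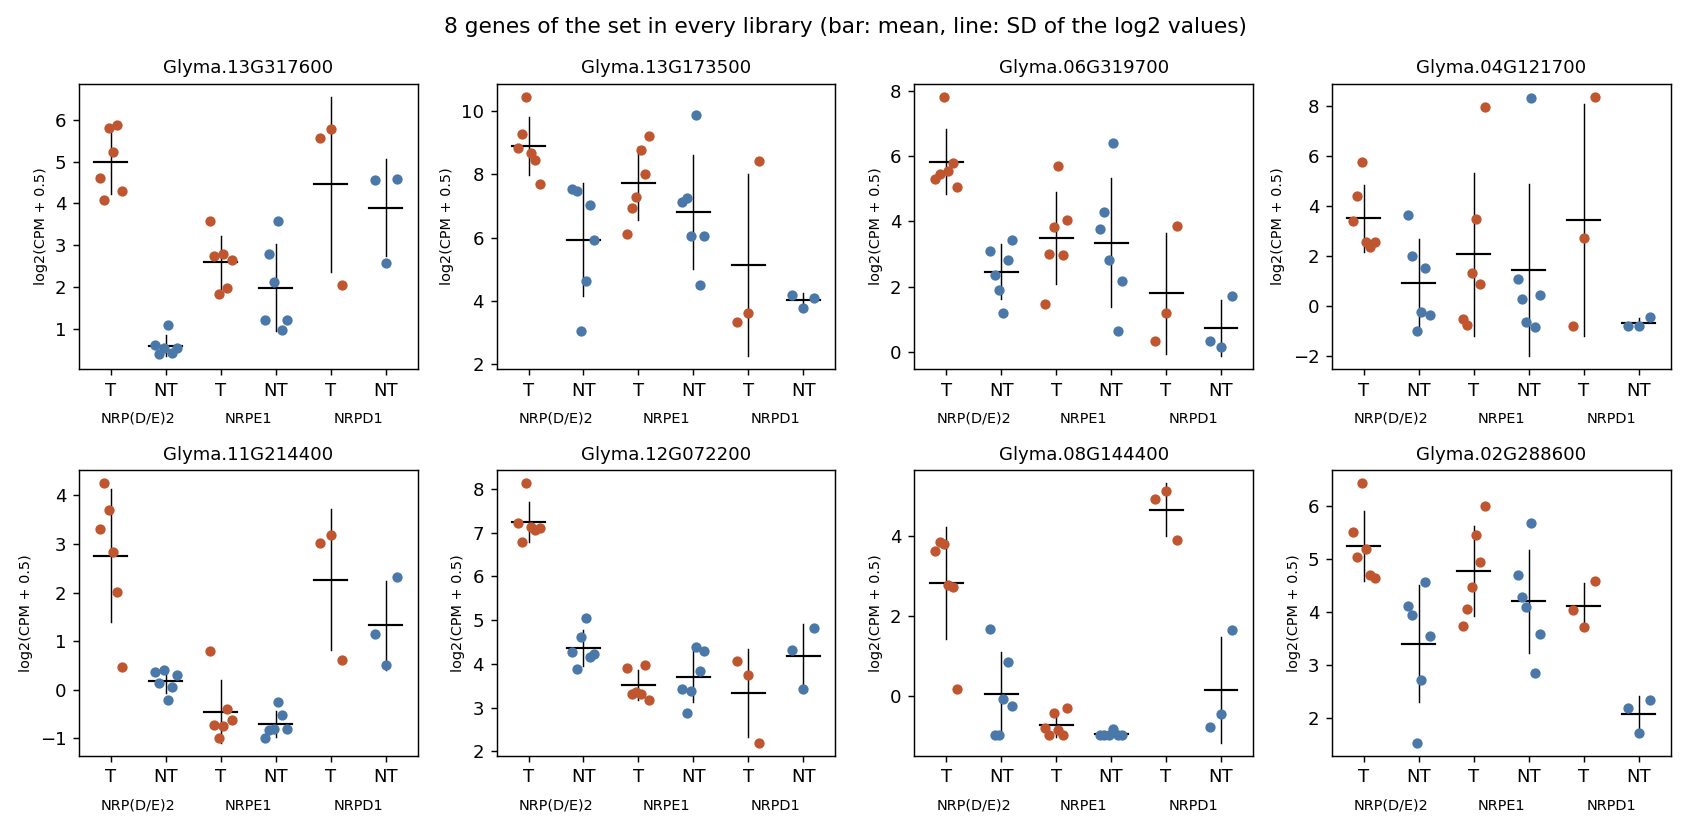
Level of 8 of the genes as log2(CPM + 0.5) in every library, with T left of NT in each line; points are libraries, bars are means and lines are SDs of the log2 values. The NRP(D/E)2 T libraries of Glyma.13G317600 all lie above its NT libraries, and for Glyma.13G173500 the NRPE1 NT libraries reach from 22.1 to 941 CPM.

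Each of the 24 Mustang libraries was left out in turn and the rule applied again. Between 140 and 490 genes then met it: 140 without NRPE1 NT replicate 4, of which 124 were among the 401, and 490 without NRP(D/E)2 T replicate 6, of which 397 were among the 401. Without NRP(D/E)2 T replicate 3 the rule took 190 genes, 179 of them among the 401. Only 33 of the 401 genes met the rule in each of the 24 leave-outs. Of these 33, 16 (48.5%) also had NRP(D/E)2 T libraries that all lay above the NT libraries. This was so for 32.7% of the 401 and 3.65% of all 55589 genes. The same libraries chose the 33, so nothing is read from that share.

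In those 33 genes the median CPM was 11.6, 11.1, 13.3, 5.10, 5.00 and 2.43 in NRP(D/E)2 T replicates 1 to 6, against 1.41, 0.807, 0.408, 1.07, 1.54 and 1.11 in NT replicates 1 to 6. In NRPE1-RNAi it was 2.62, 1.89, 1.95, 1.47, 2.15 and 2.29 CPM in T replicates 1 to 6, against 1.71, 1.72, 1.89, 2.23, 1.34 and 1.16 CPM in NT replicates 1 to 6. In this median the NRP(D/E)2 T libraries were all above the NT libraries, and the NRPE1 libraries overlapped with no single library apart. NRP(D/E)2 T replicate 3 was the highest T library for 14 of the 33 genes. By gene, NRPE1 NT replicate 4 was still the highest NRPE1 NT library for 18 of the 32 with a count there. It was so for 36.5% of other genes with a mean of at least 2 CPM. Since the 33 were chosen on those libraries, this too is a description.

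Glyma.12G072200 had the highest NRP(D/E)2 T mean of the 33 genes. It had 110, 138 and 279 CPM in NRP(D/E)2 T leaves, against 14.2, 18.5 and 32.8 CPM in NT leaves, with a ratio of 7.38 that was 6.25 without T replicate 3. In NRPE1-RNAi it had 8.52, 9.63 and 15.1 CPM in T leaves, against 6.89, 11.9 and 20.4 CPM in NT leaves, and its ratio was 0.838 with NT replicate 4 and 0.932 without. Here the NRP(D/E)2 T plants stood clear of all other Mustang plants. Glyma.11G214400 had 0.871, 8.06 and 18.5 CPM in NRP(D/E)2 T leaves, against 0.358, 0.665 and 0.815 CPM in NT leaves, a gap that at the lowest T library was narrow.

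A share of the genes had a ratio near 1 in NRPE1-RNAi because they were nearly unexpressed there. In 28 of the 401 genes, 11 of them among the 33, both NRPE1 means were under 0.5 CPM, where the 0.5 added to both means holds the ratio near 1. Glyma.04G154200 had 0.436, 6.06 and 10.1 CPM in NRP(D/E)2 T leaves, against 0, 0.157 and 0.675 CPM in NT leaves. In NRPE1-RNAi it had a count in 1 T library only, at 0.548 CPM, and none in the NT libraries. Its NRPE1 ratio was 1.18 with 0.5 CPM added and 1.91 with 0.1 CPM added, so the band says little of such genes. Glyma.11G214400, also in this class, reached 1.246 CPM in NRPE1 T leaves and 0.334 CPM in NT leaves at the highest.

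The GmNRPD1-RNAi line, aimed at Pol IV alone and in another cultivar, played no part in choosing the genes, so its values allow a test. Of all 401 genes, with no filter on level, 375 (93.5%) had a ratio above 1, 24 a ratio below 1 and 2 a ratio of 1. The median ratio was 2.29, where 60.5% of all other genes with a mean of at least 2 CPM had a ratio above 1 and their median was 1.06. Of the 570 genes that met the NRP(D/E)2 requirement with an NRPE1 ratio above the band, 84.6% had an NRPD1 ratio above 1, with a median of 1.80. A higher NRPD1 ratio was thus not particular to the 401 genes. The means behind their ratios were low: the median T mean of the 401 genes was 3.99 CPM and the median NT mean 0.920 CPM.

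No single gene of the set passed the test in NRPD1-RNAi. Of the 401 genes 242 passed the filter on low counts, and edgeR called 0 of them, the lowest adjusted p being 0.0855. Over all 30539 tested genes it called 5, which is 0.0164% higher in T and 0% lower. At an unadjusted p under 0.05, 84 of the 242 genes were higher in T (34.7%, against 6.23% of all tested genes) and 1 was lower (0.413%, against 1.59%). DESeq2 called 27 of the 242 higher at an adjusted p under 0.05, or 11.2%, against 1.68% of all tested genes. All T libraries lay above all NT libraries for 96 of the 401 genes, or 23.9%, against 5.54% of all 55589 genes, and for 69 of the 242, or 28.5%, against 7.9% of the tested genes. All T libraries lay below all NT libraries for 1 of the 242, against 4.12%. With 3 libraries a group, the libraries rather than the genes are the replicates, so these shares carry no test of their own.

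**Figure D4:**
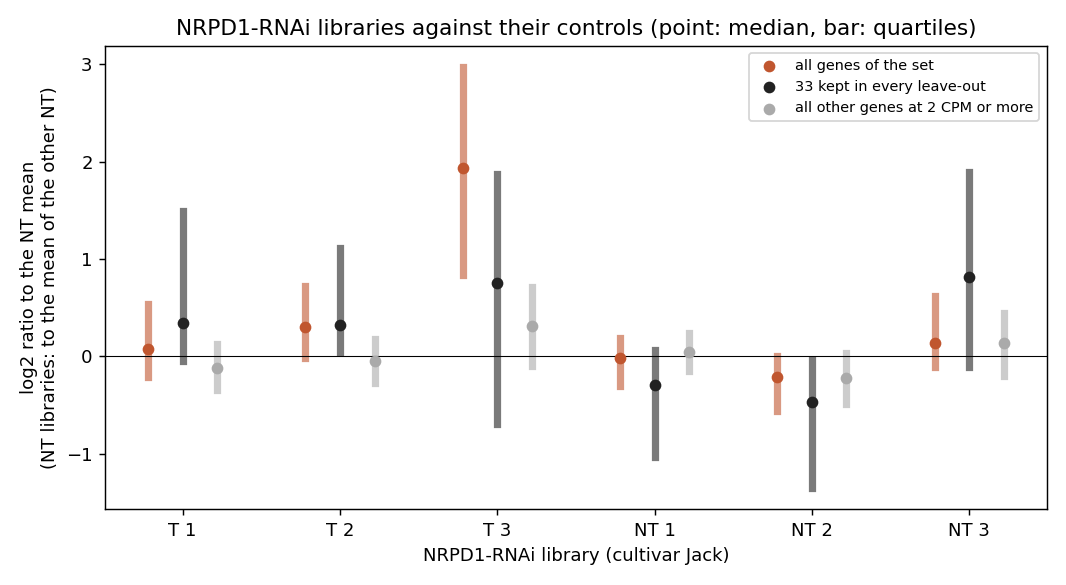
Log2 ratio of each NRPD1-RNAi library to the mean of the NT libraries (for an NT library, of the other NT libraries), T left of NT, for the 401 genes, the 33 genes that met the rule in each leave-out and all other genes with a mean of at least 2 CPM; points are medians over genes and bars run from the lower to the upper quartile. The median ratio of the 401 genes is 3.82 in T replicate 3, against 1.05 and 1.23 in T replicates 1 and 2.

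Most of that difference lay in 1 library. The median CPM of the 401 genes was 1.07, 1.56 and 6.69 in NRPD1 T replicates 1 to 3, against 0.777, 0.614 and 1.04 in NT replicates 1 to 3. The median ratio to the NT mean was 1.05 in T replicate 1, 1.23 in T replicate 2 and 3.82 in T replicate 3, where all other genes with a mean of at least 2 CPM had 0.923, 0.966 and 1.24. T replicate 3 was the highest of the 6 NRPD1 libraries for 308 of 399 genes with a count (77.2%), against 51.1% of other genes with a mean of at least 2 CPM. It also held the most detected genes of the line at the common depth, 39359. Without T replicate 3 the ratio was above 1 in 274 genes (68.3%, against 39.0% of other genes), below 1 in 116 and at 1 in 11, with a median of 1.19. Among the 570 genes above the NRPE1 band it was then above 1 in 70.9%, with a median of 1.23. The part of that library in the result beyond these values was not tested.

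The 33 genes that met the rule in each leave-out were less tied to NRPD1 T replicate 3 in their medians. Their median CPM was 6.59, 9.18 and 4.58 in NRPD1 T replicates 1 to 3, against 2.72, 1.84 and 5.46 in NT replicates 1 to 3, so the groups overlapped. Of the 33, 27 had an NRPD1 ratio above 1 and 6 below, with a median ratio of 1.73, and the counts were also 27 and 6 without T replicate 3, with a median of 1.21. T replicate 3 was the highest T library for 15 of the 33. The 2 sets were not tested against each other.

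Without NRPD1 T replicate 3 edgeR called 3 of the 241 tested genes, all higher, or 1.24%, against 0.171% of all 30963 tested genes. They are named after their values were seen. For named genes, NRPD1 values are given here and below in the order of replicates 1 to 3. Values in the other lines are the lowest, median and highest. Glyma.02G288600 had 15.8, 12.6 and 23.3 CPM in NRPD1 T leaves, against 4.04, 2.76 and 4.57 CPM in NT leaves. It also had the lowest p with all libraries, with a log2 fold change of 2.12 ± 0.23 (SE) and an edgeR adjusted p of 0.0855, against 1.97 ± 0.22 and 0.0437 without T replicate 3. The DESeq2 adjusted p with all libraries was 4.07e-09. In NRP(D/E)2-RNAi this gene had 24.5, 34.0 and 85.2 CPM in T leaves, against 2.38, 12.9 and 23.1 CPM in NT leaves, and in NRPE1-RNAi its ratio was 1.43 with and 1.94 without NT replicate 4. Its T and NT libraries were thus separate in NRPD1-RNAi and in NRP(D/E)2-RNAi, by a small margin in the last.

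Glyma.04G208300 had 7.74, 8.19 and 20.4 CPM in NRPD1 T leaves, against 2.56, 1.92 and 2.49 CPM in NT leaves. Its log2 fold change was 1.83 ± 0.22 (SE) with an edgeR adjusted p of 0.0452 without T replicate 3, and 2.27 ± 0.35 with 0.125 with all libraries. Glyma.17G072400 had 24.9, 24.5 and 189 CPM in T leaves, against 6.60, 5.37 and 9.71 CPM in NT leaves. Its T replicate 3 was far above the others, and the larger spread went with an edgeR adjusted p of 0.277 with all libraries, against 0.0452 without. In NRP(D/E)2-RNAi, unlike most of the 401, it was lowest in T replicate 3, at 7.29 CPM, and highest in T replicate 5, at 52.6 CPM. Glyma.11G234300, with the next lowest p over all libraries, had 26.4, 19.4 and 28.3 CPM in NRPD1 T leaves, against 5.98, 4.60 and 9.47 CPM in NT leaves, with a log2 fold change of 1.85 ± 0.26 and an edgeR adjusted p of 0.116.

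The genes that were lowest or flat in NRPD1 T replicate 3 included several of the named ones. Glyma.12G072200 had 16.2, 12.9 and 4.07 CPM in NRPD1 T leaves, against 19.6, 10.2 and 27.8 CPM in NT leaves, the smallest NRPD1 ratio of the 401 at 0.589, with a log2 fold change of -0.73 ± 0.58 and an edgeR adjusted p of 0.857. Glyma.13G317600 had 46.6, 54.8 and 3.64 CPM in T leaves, against 23.1, 5.45 and 23.4 CPM in NT leaves. Both genes had T and NT libraries that overlapped in NRPD1-RNAi but not in NRP(D/E)2-RNAi. Glyma.13G173500 went the other way, with 9.50, 11.8 and 345 CPM in T leaves, against 17.9, 13.3 and 16.6 CPM in NT leaves: its NRPD1 ratio was 7.46 with T replicate 3 and 0.678 without. Glyma.14G078300 had 461, 426 and 425 CPM in T leaves, against 172, 158 and 226 CPM in NT leaves, a separation in every library with an edgeR adjusted p of 0.190 and a DESeq2 adjusted p of 4.42e-05.

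The largest NRPD1 ratio, 177, belonged to Glyma.04G121700, a gene chosen here after its values were seen. It had 0.0766, 6.06 and 329 CPM in NRPD1 T leaves, against 0.0777, 0.0767 and 0.241 CPM in NT leaves. In NRPE1-RNAi it had 0.0995, 1.67 and 243 CPM in T leaves, against 0.0638, 0.786 and 320 CPM in NT leaves. The NRP(D/E)2 values were 4.65, 7.70 and 52.8 CPM in T leaves, against 0, 1.37 and 11.8 CPM in NT leaves. Its level was thus far above all others in single T plants and in 1 NT plant, and its groups overlapped in all 3 lines. The NRPE1 ratio was 0.799 with all libraries, 36.8 without NT replicate 4 and 0.0620 without T replicate 6. With all libraries it did not pass the filter on low counts in NRPD1-RNAi, so it had no test there.

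Levels of the 401 genes in cultivar Jack and cultivar Mustang come from libraries of different lines that share no controls. The NRPD1 NT mean was under 0.5 CPM for 166 of the 401 genes and exceeded the NRP(D/E)2 NT mean for 111. For 34 genes the Jack NT mean exceeded even the NRP(D/E)2 T mean. These shares were not computed over all genes, and the NRP(D/E)2 means took part in choosing the genes, so nothing is read from the counts. The median NRPD1 NT mean was 0.920 CPM over the 401 genes and 1.31 CPM over all 55589 genes. The largest NRP(D/E)2 ratios of the 34 genes belonged to Glyma.17G238200 and Glyma.07G265500. Glyma.17G238200 had 93.9, 76.5 and 13.8 CPM in NRPD1 T leaves, against 61.1, 30.9 and 130 CPM in NT leaves. Glyma.07G265500 had 22.8, 25.6 and 12.5 CPM in NRPD1 T leaves, against 13.6, 33.8 and 17.0 CPM in NT leaves. In both genes the NRPD1 groups overlapped, and leaves of control Jack plants were above the median NRP(D/E)2 T values of 2.28 and 17.5 CPM in every Jack NT library for Glyma.17G238200 and in 1 for Glyma.07G265500. Cultivar and line cannot be told apart in these levels.

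The 401 genes were spread over all 20 chromosomes, with between 11 and 37 on each. Their share of a chromosome's identifiers was between 0.401% on chromosome 7 and 1.07% on chromosome 17, against 0.721% over all chromosomes. Of the 401 genes 372 had no neighbour in the set, and 29 stood beside another of the set in the order of identifiers, in 11 pairs, 1 run of 3 and 1 run of 4. The genes in a run are neighbours and may share reads if they are near-identical copies, which the counts do not show. Neither the spread over chromosomes nor the number of neighbours was tested against randomly placed genes.

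The run of 3, Glyma.08G144400, Glyma.08G144500 and Glyma.08G144600, lies at places 1444 to 1446 of the 3679 identifiers of chromosome 8. Glyma.08G144400 had 0.622, 9.14 and 14.1 CPM in NRP(D/E)2 T leaves, against 0, 0.391 and 2.70 CPM in NT leaves, with ratios of 7.16, 5.25 and 3.64 along the run. In NRPE1-RNAi the first 2 genes stayed under 0.35 CPM in every library, while Glyma.08G144600 had 1.31, 1.53 and 2.37 CPM in T leaves, against 1.02, 1.255 and 1.95 CPM in NT leaves. The 5 identifiers before and the 5 after the run had NRP(D/E)2 ratios between 0.561 and 1.18, so the higher ratios ended at its edges.

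The same 3 genes had larger NRPD1 ratios than the 4 genes of the run on chromosome 11. Glyma.08G144400 had 30.4, 35.1 and 14.6 CPM in NRPD1 T leaves, against 0.0777, 0.230 and 2.65 CPM in NT leaves. Glyma.08G144500 had 28.6, 21.2 and 11.6 CPM in T leaves, against 0, 0 and 2.41 CPM in NT leaves. Glyma.08G144600 had 84.4, 60.7 and 25.03 CPM in T leaves, against 1.40, 0.921 and 9.47 CPM in NT leaves. All T libraries were above all NT libraries for each of the 3, T replicate 3 was the lowest of the T libraries and NT replicate 3 the highest of the NT libraries. The NRPD1 ratios were 18.3, 16.1 and 12.9. The log2 fold change of Glyma.08G144400 was 4.81 ± 0.98 (SE), with an edgeR adjusted p of 0.206 and a DESeq2 adjusted p of 9.09e-05, so the call depends on the tool.

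The run of 4 lies from Glyma.11G230300 to Glyma.11G230600, at places 2303 to 2306 of the 2570 identifiers of chromosome 11, with NRP(D/E)2 ratios between 3.84 and 4.14. Glyma.11G230300 had 3.73, 8.41 and 34.4 CPM in NRP(D/E)2 T leaves, against 0.340, 2.66 and 6.61 CPM in NT leaves, and Glyma.11G230600 had 4.61, 9.76 and 31.5 CPM in T leaves, against 0.408, 3.17 and 4.53 CPM in NT leaves. In NRPE1-RNAi both ratios rested on NT replicate 4: they were 2.72 and 2.29 without it and 1.35 and 1.10 with it. The 5 identifiers on each side had NRP(D/E)2 ratios between 0.756 and 1.59. These first and last genes of the run therefore differed from the run on chromosome 8 in how their NRPE1 ratios moved when that library was left out. On chromosome 8 the ratios were between 1.15 and 1.26 without it. However, Glyma.08G144400 and Glyma.08G144500 were at or under 0.349 CPM in every NRPE1 library. At that level the 0.5 CPM added holds a ratio near 1, so their ratios say little here.

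**Figure D5:**
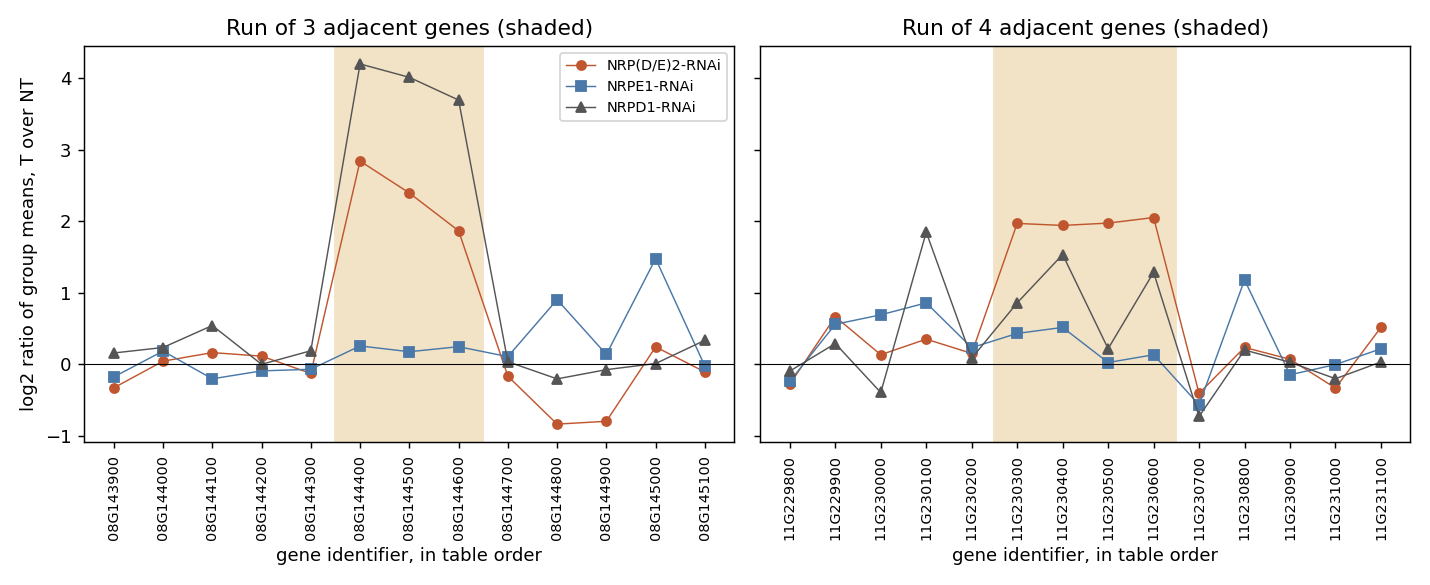
Log2 ratio of group means, T over NT, in the 3 lines for the run of 3 on chromosome 8 and the run of 4 on chromosome 11 (shaded) and the 5 identifiers on each side, in table order. On chromosome 8 the 3 genes lie above their neighbours in NRP(D/E)2-RNAi and NRPD1-RNAi, with NRPD1 ratios of 18.3, 16.1 and 12.9, and a ratio near 1 in NRPE1-RNAi. In NRPE1-RNAi Glyma.08G144400 and Glyma.08G144500 were at or under 0.349 CPM in every library, where the 0.5 CPM added holds a ratio near 1.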

How the data were processed

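Leaf poly(A) RNA libraries were sequenced on an Illumina instrument, per the labels' protocols. The authors deposited 1 table per library with a whole-number count per gene. FastQC 0.11.5, STAR 2.5.3a and edgeR are named in the submitters' processing notes; the counting settings, strandedness and genome build are not given in the sources used here. CPM were computed from the second column of each table over its total, and 0.5 CPM was added to both group means in each ratio. Samples were grouped by the labels. Each line was tested apart, T against NT, with edgeR 4.0.16 in R 4.3.3 (filterByExpr, TMM, glmQLFit and glmQLFTest, Benjamini-Hochberg adjustment over all tested genes, threshold 0.05), and with DESeq2 1.42.0 as an alternative; the scripts were first tested on simulated data. The members and lists were chosen with earlier results of these data known. Since no table pairs identifiers with names, at most 2 genes were named for each class described, by the largest NRP(D/E)2 ratio or, for abundance, the highest T mean; genes named by their NRPD1 values or their place in a run were chosen after their values were seen. Product classes and leaf markers were not analysed, for lack of names. The series' design text gives the number of T and NT plants of each line, which is the number of libraries, so replicates were taken as separate plants; the labels do not tie a number to a shared plant, day or batch. Totals of 10049997 to 21763621 counts limit genes under about 0.5 CPM. Alternatives tried were other pseudocounts, TMM-scaled CPM, group medians, a narrower band, no filter, total count scaling, a replicate block and leaving out each library.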

Additional observations from a re-analysis of the deposited data

Results flagged for a closer look

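In 25 quantities per group, over the 4 Mustang groups and so 100 groups of 6 libraries, the library farthest from the others was compared with the spread of its group, and 34 stood apart by Dixon's criterion. Of the 34, 14 belonged to NRPE1 NT replicate 4. The criterion marks about 1 in 20 groups of independent, normally distributed values. These quantities share libraries, chose the genes and were not checked for a normal distribution. The count is therefore a description and is not read against that rate.

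NRP(D/E)2 T replicate 3 stood above the other T libraries in the median level of the 401 genes (26.6 CPM) and in genes detected at the common depth (40002). It did so too for Glyma.13G173500 (1403 CPM), Glyma.06G319700 (224 CPM), Glyma.17G238200 (18.7 CPM), Glyma.12G072200 (279 CPM), Glyma.02G288600 (85.2 CPM), Glyma.04G208300 (75.1 CPM), Glyma.04G121700 (52.8 CPM) and Glyma.11G230300 (34.4 CPM).

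NRPE1 NT replicate 4 stood above the other NT libraries in the median level of the 401 genes (20.9 CPM), in their share of all counts (2.22%) and in detected genes (38415). It did so for Glyma.13G173500 (941 CPM), Glyma.19G248900 (4.68 CPM), Glyma.06G319700 (83.6 CPM), Glyma.17G238200 (2.56 CPM), Glyma.04G208300 (45.5 CPM), Glyma.11G234300 (21.3 CPM), Glyma.04G121700 (320 CPM), Glyma.11G230300 (26.4 CPM) and Glyma.11G230600 (38.2 CPM), and, at 1 count each, for Glyma.08G144400 and Glyma.08G144500 (both 0.0557 CPM).

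In NRPE1 T libraries, replicate 4 stood apart for Glyma.06G319700 (51.6 CPM) and Glyma.07G265500 (33.6 CPM), replicate 6 for Glyma.04G154200 (0.548 CPM), Glyma.08G144500 (0.349 CPM) and Glyma.04G121700 (243 CPM), and replicate 1 for Glyma.11G214400 (1.246 CPM). In NT libraries of either Mustang line, single high values were those of Glyma.13G317600 in NRP(D/E)2 replicate 4 (1.61 CPM), Glyma.17G238200 in NRP(D/E)2 replicate 5 (0.538 CPM), Glyma.04G121700 in NRP(D/E)2 replicate 1 (11.8 CPM) and Glyma.05G017300 in NRPE1 replicate 5 (0.957 CPM). No cause was tested.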

How the results depend on the processing

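The rule took 401 genes. It took 209 with group medians (114 shared with the 401), 248 with a narrower NRPE1 band, 445 (352 shared) and 313 (295 shared) with 0.1 and 1 CPM added, 336 (327 shared) with TMM-scaled CPM, and between 140 and 490 with 1 library left out. Leaving out NRP(D/E)2 T replicate 3 and NRPE1 NT replicate 4 together, chosen after seeing the data, gave 100 genes, 80 of them among the 401.

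Over all genes edgeR called 5037 in NRP(D/E)2-RNAi, 2734 higher and 2303 lower. Total count scaling gave 3390 higher and 1497 lower, a replicate block 2198 in all, and leaving out 1 library between 2921 and 5521. In NRPE1-RNAi it called 618, against 1615 by DESeq2, 293 with the block and between 441 and 2102 with 1 library left out, the last being without NT replicate 4. In NRPD1-RNAi it called 5, against 1 with total count scaling, 554 by DESeq2, 10 without the filter, 0 with the block (1527 at an unadjusted p under 0.05) and between 0 and 54 with 1 library left out, 54 being without T replicate 3. Of the 401 genes it called 0 there, against 27 by DESeq2 and between 0 and 3 with 1 library left out. Of the 401 genes, edgeR called 111 in NRP(D/E)2-RNAi with the replicate block, against 286 without. The NRPD1 ratio was above 1 in 375 genes, in 368 with TMM-scaled CPM and in between 274 and 382 with 1 library left out.

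The replicate numbers share only a number: deviations from the group means of same-numbered T and NT libraries correlated between -0.476 and 0.453, and T and NT libraries matched best by number only for NRP(D/E)2 replicate 6. Among values past no test threshold, some crossed 1 when a library was left out. The NRPD1 ratio of Glyma.13G173500 was 0.678 without T replicate 3 and 7.46 with it, and its NRPE1 ratio was 0.895 without T replicate 6 and 1.17 with it. The NRPE1 ratio without NT replicate 4 was 36.8 for Glyma.04G121700, against 0.799 with it, and 1.82 for Glyma.06G319700, against 0.778 with it. The NRPD1 log2 fold change of Glyma.06G319700 was -0.04 without T replicate 3 and 1.83 with it. The median NRPE1 log2 fold change of the tested genes of the set was -0.23 without T replicate 6 and 0.13 with it. The cause of these changes was not tested. Depth limits genes under about 0.5 CPM, where a ratio is held near 1 by the value added.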
